A study of Mus musculus with 6 samples.

Results

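Neutrophil granule, calprotectin and acute-phase genes were examined in F4/80+ cells of implanted mouse tumours. The 10 genes were S100a8, S100a9, Lcn2, Ngp, Camp, Saa3, Hp, Csf3r, Cxcr2 and Retnlg, out of 19938 genes with a named probe set, and each had 1 probe set. They were chosen by role and with earlier St2-/- against wild type differences of these same arrays known, so their differences below are a description and no p-value is given as support. The tumours had grown in wild type hosts (3 samples) or in St2-/- hosts (3 samples), and RNA of each sample went onto its own Affymetrix Gene 1.0 ST array. St2 encodes the receptor for the cytokine IL-33, and the label places the deletion in the host mouse. The labels do not give the tumour, the strain, the age of the mice or any treatment, nor whether samples came from separate animals, so errors and p-values cover the spread among these 6 samples alone, and that spread may be technical. F4/80, encoded by Adgre1, marks mouse macrophages. The ST2 gene was not analysed here, so the genotype was not checked on the arrays.

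S100a8 and S100a9 are small calcium-binding proteins that pair to form calprotectin, an abundant cytosolic protein of neutrophils that is also made by monocytes and activated macrophages. Neutrophils store antimicrobial proteins in granules that are filled in sequence as the cells mature in bone marrow, so granule transcripts are highest in precursors. Acute-phase proteins rise in blood during inflammation. Most come from the liver, but in mice Saa3 is made mainly outside the liver, including by macrophages, and Lcn2 and Hp are also made by several cell types in inflamed tissue. IL-6 family cytokines acting through STAT3, and IL-1 and TNF acting through NF-kB and C/EBP factors, are the known inducers.

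The stretches of DNA just before the start sites of S100a8, S100a9, Lcn2, Saa3 and Ngp are shown because the first 4 of these genes were lower in St2-/- and Ngp, a granule gene, served as the contrast with overlapping groups. The sequences are the 250 bases before the RefSeq start, on the gene's own strand (build GRCm38.p6), at chr3:90668821-90669070 (S100a8, plus strand), chr3:90695722-90695971 (S100a9, minus strand), chr2:32387740-32387989 (Lcn2, minus strand), chr7:46715677-46715926 (Saa3, minus strand) and chr9:110419558-110419807 (Ngp, plus strand). The RefSeq span of Saa3 also reaches further upstream than the start used here. Capitals mark matches, on either strand, to a C/EBP motif (TTGCNNAA), a STAT motif (TTCNNNGAA), the NF-kB motif, a PU.1 motif (GAGGAA) or a TATA box (TATAAA).
S100a8: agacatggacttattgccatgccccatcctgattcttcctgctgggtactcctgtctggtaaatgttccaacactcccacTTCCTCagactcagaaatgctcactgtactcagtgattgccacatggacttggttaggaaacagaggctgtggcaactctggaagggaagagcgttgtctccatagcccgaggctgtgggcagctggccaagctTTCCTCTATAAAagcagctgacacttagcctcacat
S100a9: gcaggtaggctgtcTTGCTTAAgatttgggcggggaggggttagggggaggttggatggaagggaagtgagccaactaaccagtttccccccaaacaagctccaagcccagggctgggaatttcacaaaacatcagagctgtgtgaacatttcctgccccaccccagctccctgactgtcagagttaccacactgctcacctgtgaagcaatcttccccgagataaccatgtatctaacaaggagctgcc
Lcn2: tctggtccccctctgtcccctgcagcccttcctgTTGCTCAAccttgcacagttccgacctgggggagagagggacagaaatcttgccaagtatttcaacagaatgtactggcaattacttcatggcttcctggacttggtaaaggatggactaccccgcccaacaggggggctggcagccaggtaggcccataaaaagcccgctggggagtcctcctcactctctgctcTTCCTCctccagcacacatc
Saa3: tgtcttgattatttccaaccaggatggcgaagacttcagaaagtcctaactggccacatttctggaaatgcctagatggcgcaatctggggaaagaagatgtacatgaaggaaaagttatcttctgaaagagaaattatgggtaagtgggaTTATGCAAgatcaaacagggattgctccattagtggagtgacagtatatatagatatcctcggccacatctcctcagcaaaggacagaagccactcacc
Ngp: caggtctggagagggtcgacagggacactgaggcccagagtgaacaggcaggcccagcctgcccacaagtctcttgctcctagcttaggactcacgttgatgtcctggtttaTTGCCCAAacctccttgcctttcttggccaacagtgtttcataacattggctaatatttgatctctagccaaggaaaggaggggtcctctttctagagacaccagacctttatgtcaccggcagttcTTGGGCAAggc
The C/EBP motif was found in 5 of the 9 genes with a promoter sequence, among them S100a9 (TTGCTTAA), Lcn2 (TTGCTCAA) and Saa3 (TTATGCAA), against 9.56% of 32851 promoter windows of the same length. Ngp, whose dim probe set did not separate the groups, held 2 such matches (TTGCCCAA and TTGGGCAA). Whether motifs go with the differences was not tested. The other C/EBP match was in Retnlg. The PU.1 motif was found in 4 of the 9 (S100a8, Lcn2, Csf3r and Cxcr2) against 23.3% of windows. The NF-kB motif was found in 1 (Csf3r) against 7.25%, the TATA box in 1 (S100a8) against 12.4%, and the STAT motif in 0 against 7.02%. In S100a8 a PU.1 match and the TATA box adjoin without overlap. A match is a run of letters and not a binding site, and Hp was not analysed here.

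Levels below are log2 RMA values as deposited. Differences are St2-/- minus wild type in log2 units, each with its standard error (SE) from a limma fit over all genes. Of the 10 genes, 7 were lower and 1 higher at a limma adjusted p under 0.05, where 20.8% of all genes were called in either direction 10.02% were called lower and 10.7% higher. Of the 10 genes 5 were at least 2-fold lower, where 0.878% of all genes were. The median difference of the 10 was -0.95, beside -0.02 over all genes. Groups did not overlap for 8 of the 10, where that held for 36.4% of all genes (18.3% with St2-/- lower and 18.1% with it higher). These counts come from the contrast that was known when the genes were chosen, so nothing is read from them.

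Both calprotectin genes were lower in St2-/-. S100a8 measured 6.41, 6.54 and 6.65 on the wild type arrays, given here and below in replicate order, against 4.71, 4.82 and 4.76 on the St2-/- arrays. Every St2-/- array lay below every wild type array, and the difference was -1.77 ± 0.08 (SE), a 3.41-fold lower level. S100a9 measured 7.13, 7.40 and 6.79 in wild type and 5.28, 5.63 and 5.35 in St2-/-. Its groups were apart as well, though it varied more within them (SD 0.31 and 0.19, n = 3), and the difference was -1.69 ± 0.15 (SE). With each gene centred on its wild type mean, the profiles of S100a8 and S100a9 over the 6 arrays differed by a root mean square of 0.24. This measure keeps the group difference, so it largely restates that the 2 differences were alike in size.

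Among the granule and antimicrobial genes, Lcn2 stood apart from Ngp and Camp. Lcn2 encodes lipocalin 2, which withholds iron from bacteria by binding their siderophores. It measured 8.76, 8.64 and 8.58 in wild type and 5.78, 5.63 and 5.87 in St2-/-, a difference of -2.90 ± 0.08 (SE) or 7.46-fold. The gap between the lowest wild type and the highest St2-/- array was far wider than the range within either group. Ngp, a cathelicidin-related granule protein of neutrophil precursors, measured 3.55, 3.41 and 4.04 in wild type and 3.70, 3.92 and 3.48 in St2-/-. Camp, the cathelicidin antimicrobial peptide, measured 4.67, 4.57 and 4.80 in wild type and 4.64, 4.51 and 4.52 in St2-/-. The groups overlapped for both, with differences of 0.03 ± 0.16 (SE; 95% interval -0.33 to 0.39) for Ngp and -0.12 ± 0.08 (SE; -0.30 to 0.05) for Camp. Both were among the dimmest 40% of genes by mean level.

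The acute-phase genes Saa3 and Hp were lower by very different amounts. Saa3, a serum amyloid A protein of inflamed tissue, measured 8.21, 8.43 and 8.23 in wild type and 5.03, 4.98 and 5.05 in St2-/-. The St2-/- arrays lay close together far below wild type, and the difference of -3.27 ± 0.08 (SE), or 9.65-fold, ranked 6 among the falls of all genes, with Lcn2 at 12 and S100a8 at 39. Saa genes share sequence, so probes may not fully tell them apart. Hp, haptoglobin, which binds free haemoglobin, measured 5.78, 5.79 and 5.73 in wild type and 5.02, 5.15 and 5.30 in St2-/-. Its groups were also apart, with a difference of -0.61 ± 0.08 (SE) or 1.53-fold.

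**Figure D1:**
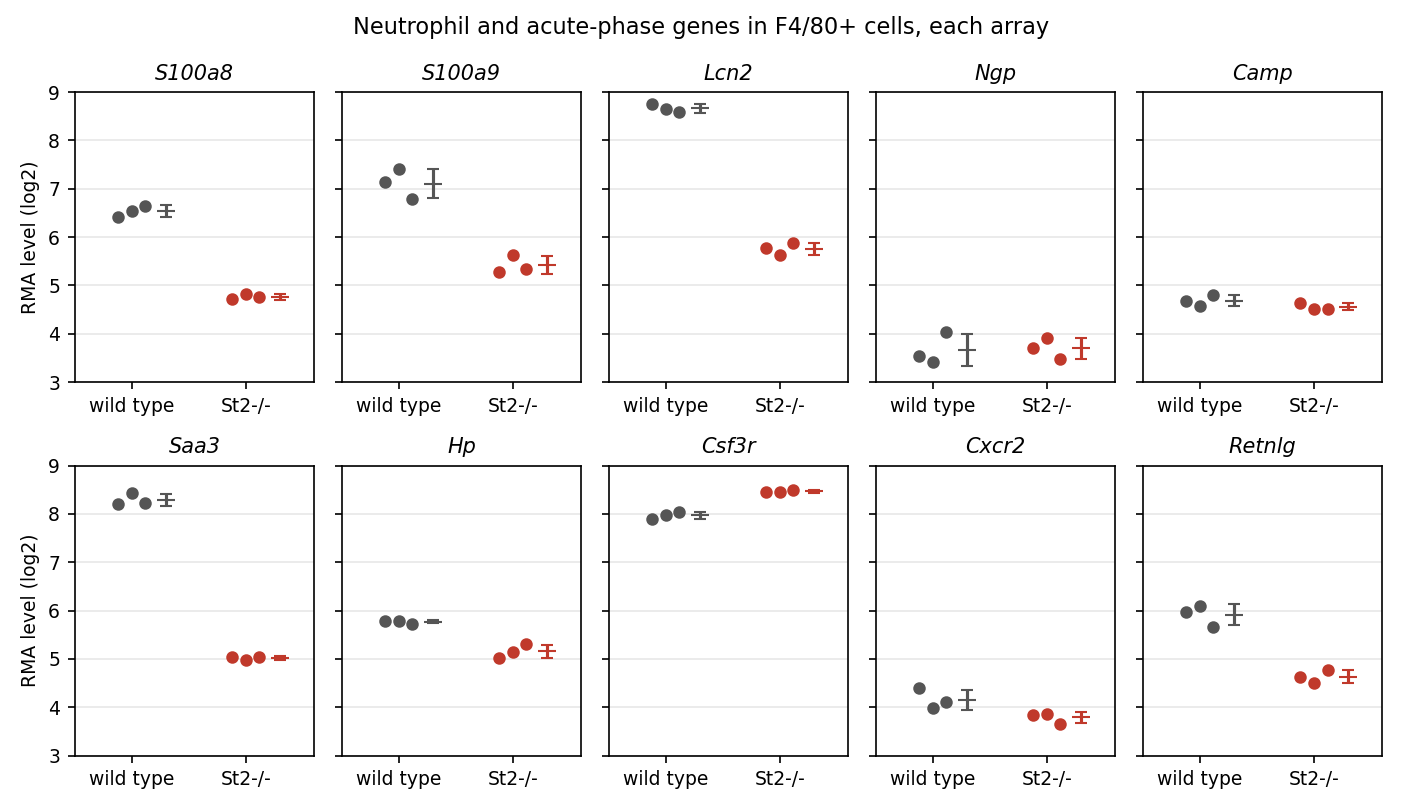
RMA level (log2) of the 10 genes on each array, with wild type in grey and St2-/- in red; bars to the right of the points are the mean and SD (n = 3). Saa3 and Lcn2 show the widest gaps, Ngp and Camp overlap, and Csf3r is the gene that lies higher in St2-/- (8.45 to 8.50 against 7.90 to 8.03).

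The receptors went opposite ways. Csf3r, the receptor for G-CSF, the cytokine that drives neutrophil production, measured 7.90, 7.97 and 8.03 in wild type and 8.45, 8.45 and 8.50 in St2-/-. It was the only one of the 10 that was higher, by 0.50 ± 0.06 (SE) or 1.41-fold, and its difference was 0.59 with arrays centred on their medians and 0.42 after cyclic loess. Cxcr2, the chemokine receptor that draws neutrophils to CXC chemokines, measured 4.39, 3.98 and 4.10 in wild type and 3.85, 3.87 and 3.65 in St2-/-. The groups were separated by a narrow margin, with a difference of -0.37 ± 0.11 (SE), on a probe set among the dimmest 40%. Its limma adjusted p of 0.04 rose above the threshold when any array other than wild type replicate 2 was left out (0.0641 to 0.139), with arrays centred on their medians (0.0786) and after cyclic loess (0.0746). Retnlg, a resistin-like secreted protein of neutrophils and bone marrow, measured 5.97, 6.10 and 5.67 in wild type and 4.62, 4.50 and 4.77 in St2-/-. Every St2-/- array was below wild type, and the difference was -1.28 ± 0.11 (SE) or 2.43-fold.

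No array was high or low for all 10 genes. A wild type array was the highest of its group for 2, 4 and 4 of the genes in replicates 1, 2 and 3, and a St2-/- array for 1, 4 and 5. S100a9 and Retnlg deviated alike within wild type, by 0.29 and 0.19 above the group mean in replicate 2 and by -0.32 and -0.24 in replicate 3. In St2-/- they parted, at 0.21 and -0.13 in replicate 2 and at -0.07 and 0.14 in replicate 3. Whether S100a9 and Retnlg varied together was not tested. By the same root mean square measure, Lcn2 and Saa3 were 0.28 apart, while S100a8 and Saa3 were 1.07 apart. These distances largely follow the group differences (-2.90 for Lcn2, -3.27 for Saa3 and -1.77 for S100a8).

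Genes with profiles nearest to S100a8 over the 6 arrays were Tspan8, a tetraspanin (0.06), Fn1, fibronectin (0.07), Htr2b, a serotonin receptor (0.09), Igf1, an insulin-like growth factor (0.09), and Pdgfra, a growth factor receptor of fibroblasts (0.10). Those nearest to Saa3 were Dcn, the matrix proteoglycan decorin (0.09), Arg1, arginase 1 (0.12), Cd163, the scavenger receptor for haptoglobin bound to haemoglobin (0.19), Ogn, another matrix proteoglycan (0.21), and Slc7a2, an arginine transporter (0.22). Both lists were made by likeness of profile only. That likeness largely follows the size of the group difference, so it does not show that genes varied together within groups.

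The rest of the neutrophil and acute-phase programme was followed in lists of other genes written by role, with earlier results of these data known. Of 65 further symbols 56 were measured, of which 10 fell, 4 rose and 42 were not called (25.0% called, beside 20.8% of all genes), with a median difference of -0.05. Of the 56, 23 were outside the dimmest 40%, where 30.4% of genes were called, against 6.39% of the dimmest 40%. With arrays centred on their medians the split was 7 lower and 6 higher, and 3686 genes were called higher and 1294 lower over the whole table against 2142 and 1998 without centring. Named genes below carry limma adjusted p-values over all 19938 genes. Most were named for the smallest p of their list, so these p-values describe and are not independent support.

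Genes of the primary granule list, which mark neutrophil precursors, were not called: 0 of 8 passed in limma, and 1 had an unadjusted p under 0.05. Mpo, myeloperoxidase, measured 5.09, 5.19 and 5.39 in wild type and 4.97, 4.98 and 5.03 in St2-/-, a difference of -0.23 ± 0.08 (SE; limma adjusted p = 0.0813). Its limma adjusted p was 0.0422 without wild type replicate 1. Elane, neutrophil elastase, differed by -0.03 (95% interval -0.27 to 0.20), and the 8 genes had a median difference of -0.05. Of these genes 2 were outside the dimmest 40%, Gfi1 and Cebpe, which encode transcription factors and not granule proteins. Of all genes 20.8% were called, but only 6.39% of the dimmest 40%, so 0 of 8 says little about precursors.

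Of 11 measured genes of the secondary and tertiary granule list 4 fell and 7 were not called (36.4% called, beside 20.8% of all genes). Chil3, a chitinase-like protein also made by alternatively activated macrophages, measured 5.22, 5.04 and 5.15 in wild type and 3.60, 3.52 and 3.69 in St2-/-, a fall of 2.90-fold (limma adjusted p = 8.55e-07). Hdc, which makes histamine, fell by 2.03-fold (limma adjusted p = 0.000187) and Mmp9, gelatinase B, by 1.89-fold (limma adjusted p = 2.12e-05). Padi4, which citrullinates histones, differed by -0.48 (limma adjusted p = 0.0348), with an adjusted p of 0.0583 to 0.111 when any array other than wild type replicate 3 was left out. Its limma adjusted p was 0.0692 after median centring and 0.112 after cyclic loess. The specific granule genes Ltf, lactoferrin, and Mmp8, neutrophil collagenase, were not called (-0.12 ± 0.08 and -0.10 ± 0.07, SE). Mmp9, Chil3 and Hdc are made by other myeloid cells as well. Hdc and Padi4, though in the list, are not typical granule protein genes.

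Of 15 measured neutrophil surface genes 4 were higher, 1 was lower and 10 were not called (33.3% called). Of the 15, 11 were outside the dimmest 40%, where 30.4% of genes were called. With arrays centred on their medians 5 were higher, and after cyclic loess 3. Mmp25, a membrane-bound metalloproteinase of leukocytes, rose from 6.26, 6.22 and 5.85 to 7.56, 7.54 and 7.43, or 2.64-fold (limma adjusted p = 1.51e-05). Siglece, an inhibitory sialic acid receptor of myeloid cells, rose by 2.19-fold (limma adjusted p = 4.66e-06) and Il1r2, the decoy IL-1 receptor, by 1.44-fold (limma adjusted p = 0.00617). Clec4d, a C-type lectin of neutrophils and macrophages, fell by 1.69-fold (limma adjusted p = 6.99e-05). Trem1, an activating myeloid receptor, differed by 0.24 (limma adjusted p = 0.0412), which rose to between 0.0554 and 0.138 when any array other than wild type replicate 2 was left out. Ly6g, the antigen that defines mouse neutrophils, measured 4.11, 3.95 and 4.36 in wild type and 3.95, 3.97 and 4.14 in St2-/-, and its groups overlapped.

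Of 22 further acute-phase genes 5 were lower and 17 were not called (22.7% called, beside 20.8% of all genes). Of the 22 only 5 were outside the dimmest 40%, where 30.4% of genes were called, against 6.39% of the dimmest 40%. Cp, the copper-carrying ferroxidase ceruloplasmin, fell from 9.90, 10.05 and 9.95 to 8.65, 8.47 and 8.70, or 2.57-fold (limma adjusted p = 2.72e-06). Lrg1, a leucine-rich glycoprotein of granulocytes and inflamed vessels, fell from 6.42, 6.32 and 6.38 to 5.03, 5.19 and 5.37, or 2.26-fold (limma adjusted p = 1.44e-05). Lbp, which hands lipopolysaccharide to CD14, fell by 1.79-fold (limma adjusted p = 0.0065). In all 3 the groups were apart, as in 9 of the 22 and in 36.4% of all genes. The metal-binding Mt2 (-0.22) and the plasma protein gene Itih4 (-0.21) passed narrowly at limma adjusted p-values of 0.0386 and 0.0444, which rose to 0.0815 to 0.118 for Mt2 without any array other than wild type replicate 3, and to 0.099 to 0.123 for Itih4 without any array other than wild type replicate 2. With arrays centred on their medians 3 of the 22 were lower and 1 higher. The liver-type Saa2 was not called (-0.14, limma adjusted p = 0.125, unadjusted 95% interval -0.28 to -0.01). Nor were Saa1 (0.03, limma adjusted p = 0.819) and Saa4 (-0.06, limma adjusted p = 0.619). Saa1, Saa2 and Saa4 were all among the dimmest 40%. Orm3, an orosomucoid gene, differed by -0.26 (limma adjusted p = 0.0664).

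**Figure D2:**
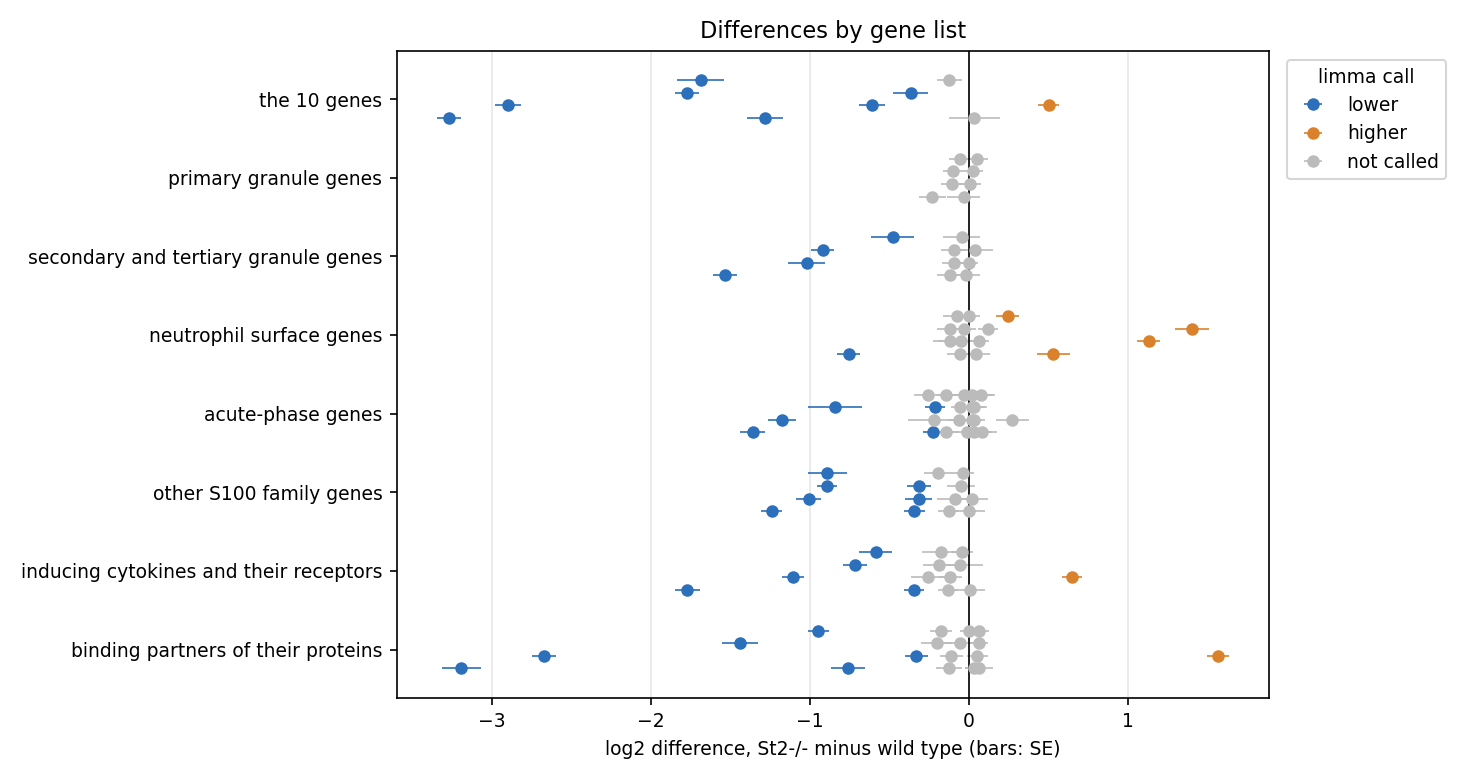
Log2 difference (St2-/- minus wild type) of each measured gene by list, with bars for the SE and colours for the limma call; vertical offsets within a list only separate points. The 10 genes spread from -3.27 to 0.50, while all 8 genes of the primary granule list lie between -0.23 and 0.05 and the surface genes reach 1.40. The row of binding partners also holds genes such as Hmox1 that are not direct binding partners.

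Calprotectin genes belong to the S100 family, and 7 of 14 further family members fell, with none higher (50% called, where 20.8% of all genes and 30.4% of those outside the dimmest 40% were); 5 were lower with arrays centred on their medians and 6 after cyclic loess. The median of the 14 was -0.25. S100a4, a motility-associated protein of macrophages and fibroblasts, fell from 10.25, 10.09 and 10.19 to 8.95, 8.91 and 8.95, or 2.36-fold (limma adjusted p = 1.53e-06). S100a6 fell by 2.01-fold (limma adjusted p = 1.92e-05), and S100a10, the partner of annexin A2, by 1.86-fold (limma adjusted p = 1.03e-05). S100b (-0.89), S100a11 (-0.34) and S100a16 (-0.31) fell as well. The limma adjusted p of S100a16, 0.014, was 0.053 after median centring and 0.0558 after cyclic loess. Among relatives of Ngp, Camp and Retnlg, 1 of 5 was called (20% called, beside 20.8% of all genes). All 5 were among the dimmest 40%, where 6.39% of genes were called. Retnla, a resistin-like protein induced by IL-4 and IL-13 in macrophages, fell by 1.91-fold (limma adjusted p = 1.89e-05). The neutrophil stefins Stfa2 and Stfa3 were not called.

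Of 14 measured inducing cytokines and their receptors 5 fell, 1 rose and 8 were not called (42.9% called). Of the 14, 11 were outside the dimmest 40%, where 30.4% of genes were called. Osmr, the oncostatin M receptor, fell from 7.53, 7.52 and 7.29 to 5.63, 5.68 and 5.72, a 3.41-fold drop (limma adjusted p = 4.77e-07). Il6st, the gp130 chain shared by IL-6 family receptors, fell from 9.52, 9.38 and 9.46 to 8.40, 8.36 and 8.28, or 2.15-fold (limma adjusted p = 3.78e-06). Il17rc, a chain of the IL-17 receptor, fell by 1.64-fold (limma adjusted p = 0.000115). Arrays of the groups did not overlap for any of these 3 receptor genes, as for 7 of the 14 genes and 36.4% of all genes. These genes were named for their small p, so this adds no support.

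The cytokine genes themselves parted. Il1a fell by 0.59 on the log2 scale (limma adjusted p = 0.00298) and Tnf by 1.27-fold (limma adjusted p = 0.00341), while Il1b rose from 8.81, 8.86 and 8.82 to 9.49, 9.52 and 9.42, or 1.57-fold (limma adjusted p = 6.78e-05). Il6 measured 3.31, 3.68 and 3.41 in wild type and 3.07, 3.20 and 3.36 in St2-/-, with overlapping groups and a limma adjusted p of 0.128. Csf3, the gene of G-CSF, differed by -0.05 (95% interval -0.36 to 0.26), Csf2, that of GM-CSF, by 0.01 (-0.20 to 0.21) and Il17a by -0.18 (-0.45 to 0.10). Osm differed by -0.13 (limma adjusted p = 0.183, and 0.0465 after cyclic loess), Lif by -0.19 (limma adjusted p = 0.22), Il17ra by -0.12 (limma adjusted p = 0.287) and Il6ra by -0.04 (limma adjusted p = 0.701).

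Of 8 measured transcription factor genes of these routes, all outside the dimmest 40%, 4 were higher, 1 lower and 3 not called (62.5% called, beside 30.4%). The split moved with the scaling: after cyclic loess 1 was higher and 1 lower, and after median centring 4 were higher and 0 lower. Cebpa, which sets granulocyte and monocyte fate, rose by 1.29-fold (limma adjusted p = 0.00259). Stat3 (0.24), Socs3, its feedback inhibitor (0.26), and Spi1, which encodes PU.1 (0.22), passed at limma adjusted p-values of 0.0318, 0.0241 and 0.0332, and after cyclic loess these were 0.154, 0.124 and 0.228. Stat3 lost its call without any array other than wild type replicate 1 (0.0608 to 0.107), Spi1 without any other than wild type replicate 3 (0.0714 to 0.101), and Socs3 without wild type replicate 1 or St2-/- replicate 1 or 3 (0.0728 to 0.0903). Nfkbiz, an NF-kB cofactor that serves the Lcn2 promoter, differed by -0.25 (limma adjusted p = 0.0132, and 0.0855 after median centring). Cebpb and Cebpd, the C/EBP factors of inflammation, were not called (0.02 ± 0.06 and -0.16 ± 0.08, SE).

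**Figure D3:**
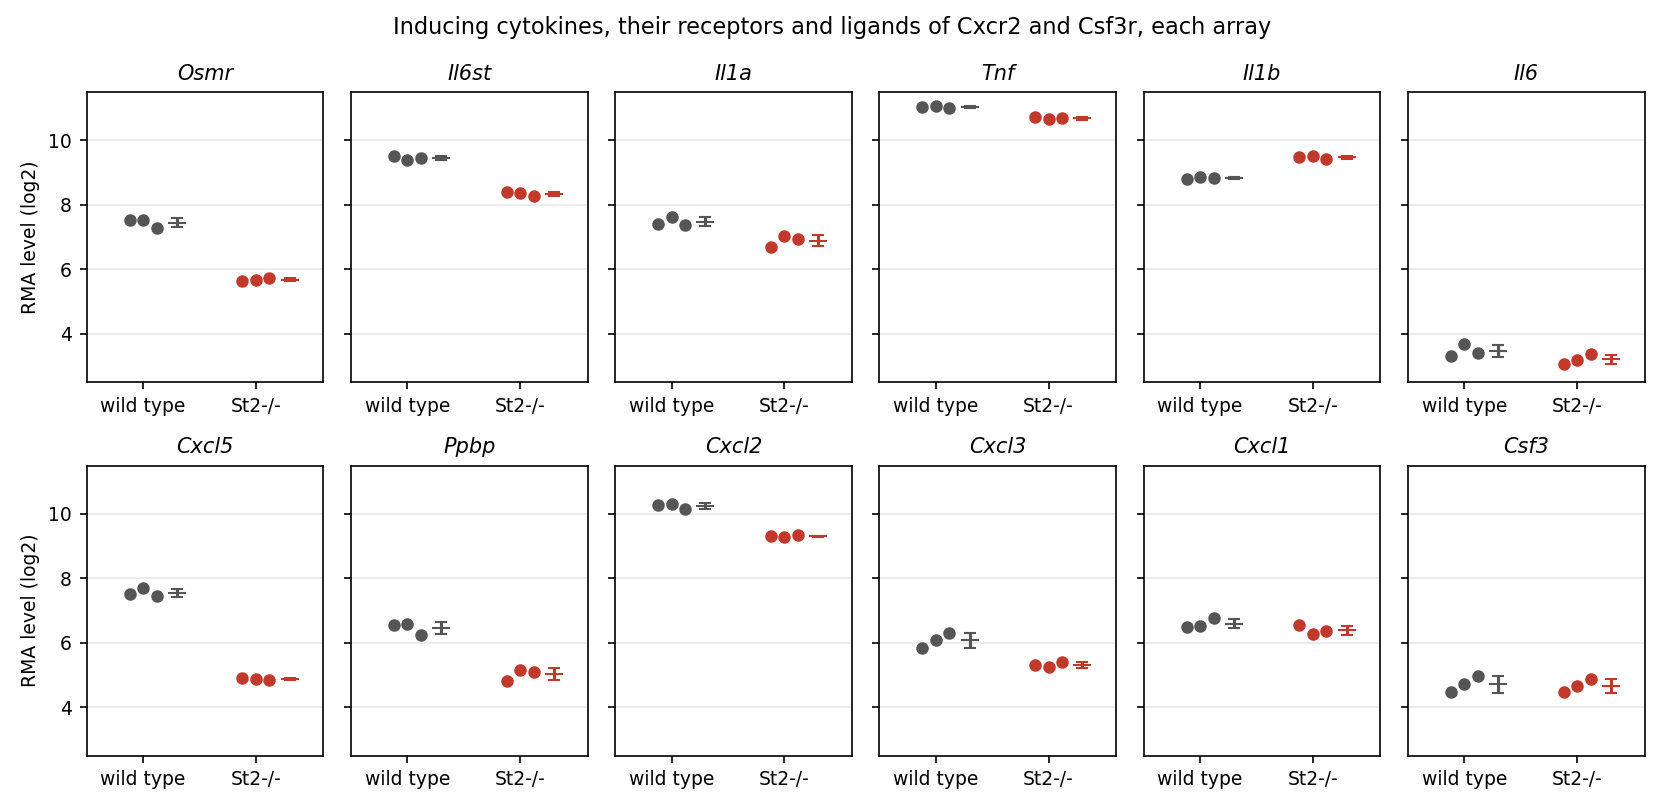
RMA level (log2) on each array of inducing cytokines, receptor chains and ligands of Cxcr2 and Csf3r, with wild type in grey, St2-/- in red and the mean and SD (n = 3) beside the points. Osmr, Il6st, Cxcl5 and Ppbp drop without overlap, Il1b rises from 8.83 to 9.48 on average, and Il6 and Csf3 overlap. Over all genes the groups did not overlap for 36.4%.

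Of 18 measured genes listed as partners of the 10 proteins, 6 fell, 1 rose and 11 were not called (38.9% called). Some, such as Hmox1, are not direct binding partners. Of the 18, 15 were outside the dimmest 40%, where 30.4% of genes were called. Among ligands of Cxcr2, Cxcl5 fell from 7.51, 7.70 and 7.46 to 4.91, 4.89 and 4.86, a 6.36-fold drop (limma adjusted p = 2.86e-08). Ppbp, the platelet chemokine precursor, fell by 2.71-fold (limma adjusted p = 1.92e-05), Cxcl2 by 1.93-fold (limma adjusted p = 1.07e-05) and Cxcl3 by 1.69-fold (limma adjusted p = 0.000814). Cxcl1, another ligand, was not called (-0.20 ± 0.10, SE). Cd163, which takes up haptoglobin bound to haemoglobin, measured 8.74, 8.50 and 8.50 in wild type and 5.55, 5.11 and 5.51 in St2-/-, a 9.13-fold fall (limma adjusted p = 1.94e-07). Cd36, a scavenger receptor reported to bind S100a8 and S100a9 complexes and serum amyloid A, rose by 2.96-fold (limma adjusted p = 4.07e-07). Tlr4, a receptor through which calprotectin signals, and its cofactor Ly96 were not called (0.06 ± 0.07 and 0.06 ± 0.09, SE), nor was Ager, another receptor of calprotectin (-0.11 ± 0.07, SE). The sixth fall was that of Slc22a17, a receptor described for lipocalin 2 (-0.33, limma adjusted p = 0.0119).

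Markers of cell types were read beside these results. All 8 macrophage markers were outside the dimmest 40%, and their mean level ranged from 11.71 to 11.72 over wild type and from 11.69 to 11.76 over St2-/- arrays. That mean covers members that went both ways: 2 of the 8 rose, 1 fell and 5 were not called. Mertk, a receptor for the uptake of dying cells, fell by 1.65-fold (limma adjusted p = 2.99e-05). Fcgr1, a high-affinity antibody receptor, differed by 0.36 (limma adjusted p = 0.00272), and Adgre1, which encodes the F4/80 antigen of the sort, by 0.31 (limma adjusted p = 0.00631). Of the 10 defining neutrophil markers 8 were measured, and 0 were called by limma (1 at an unadjusted p under 0.05). Their mean level was 4.80 to 4.94 in wild type and 4.76 to 4.80 in St2-/-, a difference of -0.09, and 7 of the 8 were among the dimmest 40%, where 6.39% of genes were called against 30.4% of the others. The part of neutrophil numbers in the lower levels of S100a8, S100a9 and Retnlg was not tested. In bulk RNA fewer cells of a type and less RNA per cell cannot be told apart.

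Other marker lists are given by their counts, beside the 20.8% of all genes called. Among 10 fibroblast markers 6 fell and 1 rose (2 higher after median centring or cyclic loess), and their mean level dropped from 7.24 to 7.28 over wild type arrays to 6.16 to 6.23 over St2-/- arrays. Dcn differed by -3.33, while Col1a2 rose by 1.28-fold. Monocyte markers had 3 lower and 1 higher of 5 measured (mean level 8.44 to 8.57, then 8.12 to 8.18), with F13a1, a transglutaminase of monocytes and macrophages, 6.63-fold lower and Plac8 9.08-fold higher. T cell markers had 4 of 5 higher. The part of these other cells in the lower levels of Saa3, Lcn2, S100a8, Cp and Cxcl5 was not tested. Adipocyte markers had 1 of 6 higher and 0 lower, with Adipoq at 3.51, 3.67 and 3.52 in wild type and 3.46, 3.24 and 3.65 in St2-/-. Epithelial and tumour markers had 1 of 7 lower, endothelial markers 3 lower and 2 higher of 6, B cell markers 2 of 4 higher, and eosinophil markers 0 of 5 called in limma (0 at an unadjusted p under 0.05).

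**Figure D4:**
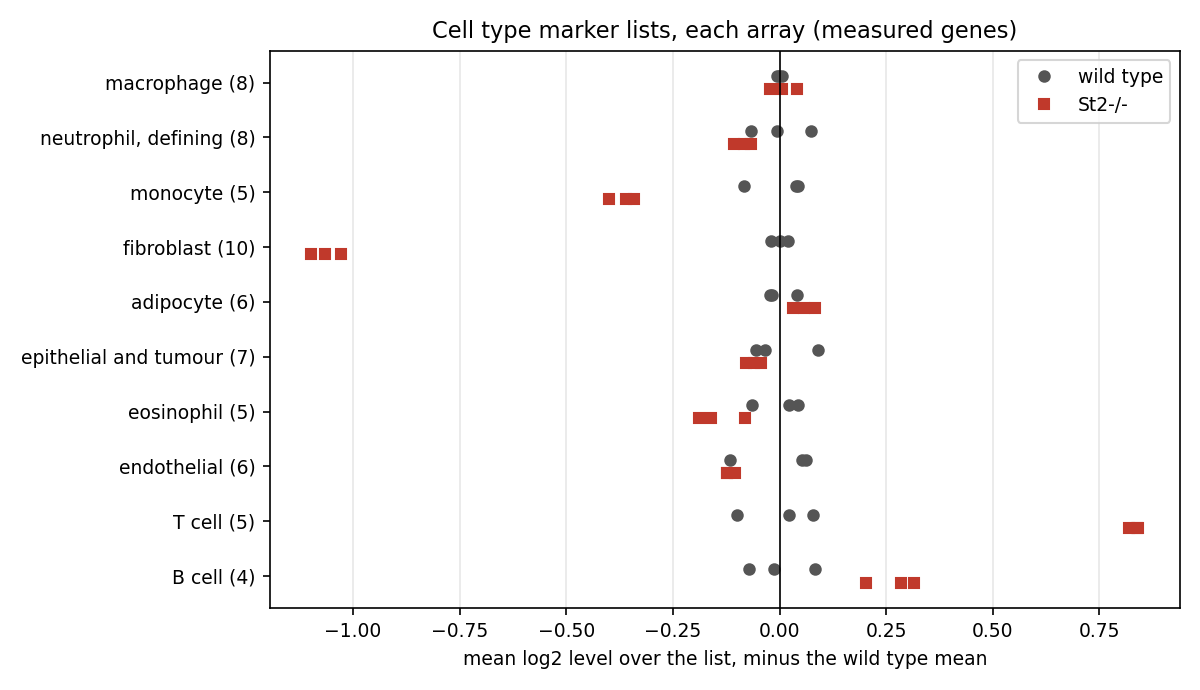
Mean log2 level over each list of cell type markers on each array, relative to the wild type mean, with wild type as grey circles, St2-/- as red squares and the number of measured genes in parentheses. Fibroblast markers lie about 1.06 lower in St2-/-, T cell markers 0.83 higher, and the means of macrophage markers (2 higher and 1 lower of 8) and of defining neutrophil markers (0 of 8 called) lie near 0.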

How the data were processed

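Each of the 6 F4/80+ RNA samples has 1 Affymetrix Gene 1.0 ST array, per the labels' protocols. The authors deposited log2 values after RMA, as the submitters' processing notes name it. The sources used here give no software version, and the log base was inferred from the method and the value range. RMA gives arrays a common distribution and so hides any change common to most genes. Medians over the genes kept still differed by group: 5.91, 5.88 and 5.93 on wild type arrays, and 5.82, 5.82 and 5.81 on St2-/- arrays. Median centring removes this offset, so small differences depend on the scaling. The number of arrays limits the precision.

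Of 35556 probe sets, 21789 had 1 gene symbol, and the one with the highest mean was kept for each of 19938 genes. The groups were compared with limma 3.58.1 under R 4.3.3 (lmFit and eBayes, two-sided, Benjamini-Hochberg over all genes, threshold 0.05), tested on simulated data. The 10 genes and all lists were chosen with earlier results of these data known. Named genes are the 10 genes, up to 6 of each list by smallest p, defining neutrophil genes, inducing cytokines, up to 4 of each marker list in list order, and the 5 profiles nearest to S100a8 and to Saa3. Saa1, Saa2, Saa4, Fcgr1, Slc22a17, Cxcl1, Tlr4, Ly96, Ager and Cebpb lie outside that rule and were named after their values were seen. Motifs were searched in RefSeq promoters (GRCm38.p6). Alternatives were median centring, cyclic loess, an intensity trend or robust prior in eBayes, the mean of a gene's probe sets, a fit without the dimmest 40%, the replicate block and leaving out each array.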

Additional observations from a re-analysis of the deposited data

Results flagged for a closer look

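Probe sets that pair a listed neutrophil or acute-phase symbol with other symbols were outside the comparison of named genes, since they cannot be given 1 name. Of 9 such probe sets 6 passed limma's adjusted p over all rows of the table, 3 higher and 3 lower in St2-/-, with log2 differences from -0.55 to 0.32.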

How the results depend on the processing

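The count of called genes was 4140 with the settings reported and 2887 to 3852 when 1 array was left out. The same leaving out gave 7 to 8 of the 10 genes and 10 to 12 of the 56 other neutrophil and acute-phase genes. With the replicate number as a block, 3571 genes, 8 of the 10 and 11 of the 56 were called, with 3 of the 22 acute-phase genes lower against 5 as reported. Same-numbered arrays did not deviate together over all genes (correlations 0.01, -0.01 and -0.05, and 1 of 6 arrays correlated best with its own number). With 3 arrays per group this cannot settle whether same-numbered arrays were handled together, and the labels give only the number. Over the 13 alternatives each of these 3 counts stayed within 1.5 times its reported value. None of the 8 called genes among the 10 changed sign under an alternative that tested it, and those other than Cxcr2 kept their call in all 13. The 10 were chosen with this contrast of the same arrays known, so this describes the processing only and is no support. Of 66 other named genes 12 changed their call under at least 1 alternative. Median centring gave 3686 higher and 1294 lower calls over all genes, or 74.0% higher against 51.7% as reported. Dim probe sets, such as those of Ngp, Camp, Cxcr2 and most defining neutrophil markers, limit what could be seen of precursors.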
